A study of Mus musculus with 6 samples.

Results

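The baseline RNA content of wild-type DN3a thymocytes was described from 3 libraries, the wild-type group of a series of 6. All 3 were total RNA from thymocytes at the DN3a stage, taken from adult C57BL/6 mice with no transgene or treatment named. The other 3 libraries of the series carry a transgene that the labels name Tg_Cd2_GATA3 and were not used. The labels give neither the sex of the mice, nor whether a library holds cells of 1 mouse or of a pool, nor the markers used to sort the cells, and they do not say that the samples came from separate mice. Ribosomal RNA had been depleted, so RNA without a poly(A) tail, such as histone mRNA, was measured too. Levels are FPKM (fragments scaled by transcript length and by library depth), summed over the transcripts of each gene symbol, and 41057 of the 41254 symbols in the table were used. The other 197, Irf8 and Eef1a1 among them, hold a transcript that the authors' software could not estimate, and the 466 transcripts concerned are listed at 0 in these libraries. Sets of 3 values follow the order of replicates 1 to 3, and values with ± are means with the SD (n = 3).

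DN3a cells are double-negative thymocytes, which carry neither CD4 nor CD8. At this stage the recombinase made of RAG1 and RAG2 joins the gene segments of the T cell receptor beta locus, and terminal transferase (Dntt) adds bases at the joints. A successful beta chain pairs with the surrogate chain encoded by Ptcra and signals through CD3 and LCK, which moves the cell past the DN3a stage. Notch1 signalling and the factors encoded by Tcf7, Gata3 and Bcl11b commit these cells to the T lineage.

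The libraries held 45730619, 46985605 and 45469459 fragments, and at that depth counting error matters mainly for short or rare transcripts. Replicate 1 stood apart from the other libraries. It alone held RNA of the Y-linked genes, with Ddx3y at 42.04, 0.0117 and 0.0693 FPKM and Eif2s3y at 57.7, 0 and 0.0903 FPKM, while Xist, the noncoding RNA of the inactive X chromosome, was at 0.0993, 97.02 and 97.4 FPKM. Its levels of cell cycle genes were also the lowest, as described further on. The main counts that follow are also given without it. In bulk RNA, fewer cells of a type and less RNA per cell cannot be told apart.

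In each of the 3 libraries 11028 genes reached 1 FPKM, here termed detected, and 10030 of them are protein-coding. Without replicate 1 the number of detected genes was 11268. At the other end 21498 symbols had no fragment in any library and 28536 (69.5%) stayed under 1 FPKM in each, which among protein-coding symbols held for 50.1%. The median detected gene had a mean of 16.2 FPKM, 6733 genes reached 10 FPKM in each library, 766 reached 100 FPKM and 102 reached 1000 FPKM. Without replicate 1 those numbers were 6912, 828 and 109, with 28847 symbols under 1 FPKM and 22125 without a fragment.

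The DN3a identity list, which also holds general T cell genes such as the CD3 chains, had its median near the top of this order. Of 22 identity genes 21 were detected, 20 reached 10 FPKM in each library and 12 reached 100 FPKM. Their median place was at the 95.4th percentile of the detected genes, where the median of all detected genes is at 50 by construction. As a base for this and the other T cell lists, 11028 of 41057 symbols were detected, and 10030 of 21285 protein-coding ones. Among all symbols 6733 reached 10 FPKM in each library and 766 reached 100 FPKM. All 7 markers of DN3a cells, Rag1, Dntt, Ptcra, Il2ra, Bcl11b, Notch1 and Tcf7, were among the detected genes. They ran from percentile 91.5 (Il2ra) to 99.2 (Dntt). The plot of level by rank shows where both T cell lists fall.

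**Figure D1:**
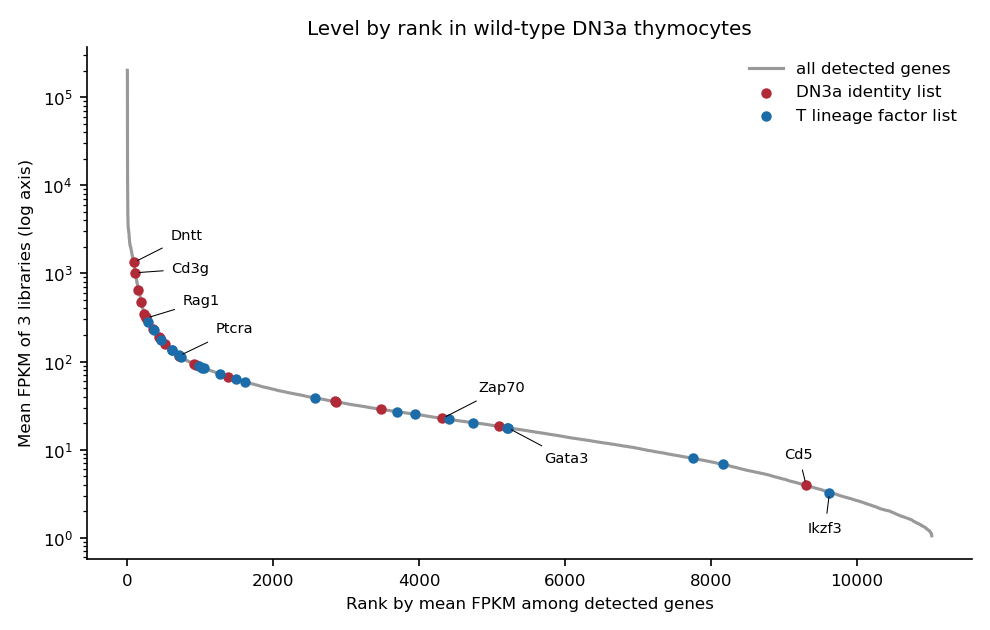
Mean FPKM over 3 libraries (vertical, log axis) against rank (horizontal) for the 11028 detected genes, with the detected members of the DN3a identity list in red and of the T lineage factor list in blue. Dntt and Cd3g lie among the steep first ranks, while Cd5 and Ikzf3 lie near the lower end.

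The recombination machinery was led by Dntt, the terminal transferase, at 1556, 1165 and 1271 FPKM. It was highest in replicate 1 and had the seventh largest number of fragments of the genes used. Rag1 was at 309, 306 and 317 FPKM, with a coefficient of variation (CV, the SD over the mean) of 1.82%, so its 3 values were nearly alike. Rag2, the partner subunit encoded beside Rag1, was at 32.98, 35.6 and 36.7 FPKM, well below Rag1 in each library. Ptcra, the pre-T alpha chain, was at 118, 113 and 117 FPKM and showed only its 1 listed transcript.

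The receptor signalling chain was present but uneven in level. Cd3g was at 1016, 1032 and 1001 FPKM, above Cd3d at 195, 194 and 167 FPKM and Cd247 (the zeta chain) at 169.5, 153 and 149.8 FPKM. Cd3e was lowest of the CD3 genes, at 60.5, 71.9 and 69.9 FPKM, and the ranges of Cd3g, Cd3e and the other CD3 genes did not overlap, except those of Cd3d and Cd247, where the lowest Cd3d value lay under the highest of Cd247. Lck, the kinase that phosphorylates the CD3 chains, was at 693, 619 and 629 FPKM, and Lat, the adaptor downstream of it, at 376, 323 and 345 FPKM. Zap70, the kinase between Lck and Lat, was far lower at 21.9, 24.1 and 21.8 FPKM in all 3 libraries. Lcp2, an adaptor that binds Lat, was at 34.02, 36.4 and 35.4 FPKM.

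Among surface proteins Cd24a was at 311, 326 and 323 FPKM, Ptprc (CD45) at 248, 233 and 213 FPKM and Thy1 at 179, 192 and 194 FPKM. Il2ra, the CD25 chain that marks the DN2 and DN3 stages, was at 86.2, 96.1 and 94.8 FPKM, and Il7r, the receptor of the growth factor IL-7, at 31.9, 26.4 and 27.9 FPKM. Cd27, which rises as cells pass beta-selection, was at 98.6, 87.2 and 96.2 FPKM and the costimulatory receptor Cd28 at 18.4, 18.8 and 17.997 FPKM. Ly6d was the least steady member above 10 FPKM, at 661, 367 and 409 FPKM, with replicate 1 above both others. The low end held Cd5, a brake on receptor signalling, at 3.97, 3.59 and 4.26 FPKM and Cd2, the single member not detected, at 1.24, 1.37 and 0.689 FPKM. Both stayed low in each library, so the list is not uniformly high.

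**Figure D2:**
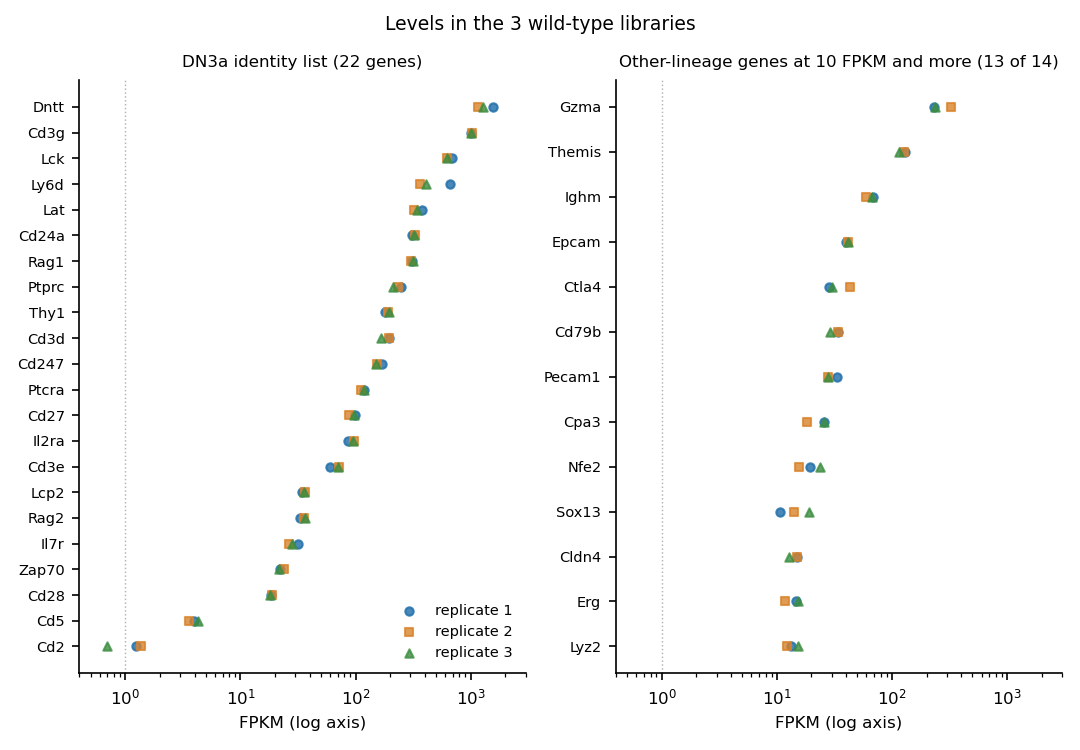
FPKM in each of the 3 wild-type libraries (horizontal, log axis, 1 symbol per replicate) for the 22 identity genes (left) and for 13 of the 14 genes of other-lineage lists that reached 10 FPKM in each library (right), with the dotted line at 1 FPKM. The identity genes run from about 1 FPKM (Cd2) to over 1000 (Dntt, Cd3g), and the values of Gzma overlap those of Ptprc.

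Of 25 T lineage factors 23 were detected, 20 of them at 10 FPKM or more in each library, with a median place at the 86.6th percentile. Ets1 led at 288, 284 and 279 FPKM, followed by Myb at 242, 210.5 and 223 FPKM and Tcf7 (TCF-1) at 169, 169.6 and 189 FPKM. Bcl11b, which locks in T cell commitment, was at 149.9, 110.4 and 143 FPKM and lowest in replicate 2. Patz1 (134 ± 4.37 FPKM), Satb1 (119 ± 7.64 FPKM) and Tcf12, which encodes the E protein HEB (114 ± 2.44 FPKM), were also above 100 FPKM. Neighbours in that order overlapped: Bcl11b with Patz1, and Satb1 with Tcf12.

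A middle group held Cbfb (88.2 ± 2.06 FPKM), Ikzf1, which encodes Ikaros (85.3 ± 0.645 FPKM), Sox4 (83.8 ± 9.896 FPKM), Runx1 (71.4 ± 11.2 FPKM), Tcf3, which encodes E2A (63.5 ± 3.52 FPKM), Gfi1 (59.2 ± 8.92 FPKM) and Ikzf2 (38.7 ± 2.59 FPKM). Ikzf1 was the steadiest of all the factors, with a CV of 0.756%. Gata3 was at 19.9, 14.99 and 18.2 FPKM, at the 52.7th percentile, so the factor named in the study's title was near the middle of the detected genes in wild-type cells. Lef1 (27.1 ± 4.15 FPKM), Id3, an inhibitor of E proteins (25.3 ± 4.21 FPKM), Ets2 (22.02 ± 4.44 FPKM), Nfatc3 (20.3 ± 1.29 FPKM) and Spib (17.7 ± 0.878 FPKM) lay in the same range.

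The lowest factors included both early growth response genes. Tox was at 8.21, 7.61 and 8.03 FPKM and Ikzf3 at 2.33, 3.65 and 3.82 FPKM. Id2, the inhibitor of E proteins that innate lymphoid cells depend on, was at 4.49, 6.95 and 8.95 FPKM and lowest in replicate 1. Egr1 was at 1.11, 1.25 and 0.948 FPKM and crossed the detection threshold, and Egr3 had fragments in replicate 2 only (0, 13 and 0 fragments). Pre-receptor signalling is known to induce these factors, and both were low in every library.

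In the Notch pathway 16 of 17 genes were detected. Notch1, the receptor, was at 179, 176 and 178 FPKM and Notch3 at 67.97, 59.2 and 66.4 FPKM, whereas Notch2 was at 9.52, 8.43 and 9.98 FPKM. The order of the receptors was the same in each library, and the CV of Notch1 was 0.907%. Among target genes Hes1 was at 77.04, 68.2 and 64.2 FPKM and Dtx1 at 21.03, 26.2 and 22.2 FPKM, with Nrarp (5.37 ± 1.26 FPKM) and Hes5 (4.398 ± 1.29 FPKM) lower and Heyl under 1 FPKM at 0.249, 0.360 and 0.968. The DNA-binding partner Rbpj was at 17.1 ± 0.796 FPKM and its coactivator Maml1 at 4.003 ± 0.141 FPKM. The proteases that release the intracellular domain lay close together, with Adam10 at 17.2 ± 1.26 FPKM, Adam17 at 20.2 ± 0.947 FPKM and Ncstn at 23.7 ± 1.38 FPKM. Of the Fringe glycosyltransferases, which tune the choice of Notch ligand, Lfng (28.7 ± 0.668 FPKM) and Mfng (29.01 ± 1.41 FPKM) were above Rfng (6.896 ± 0.670 FPKM) in each library.

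The receptor genes themselves showed beta and gamma RNA but little from the alpha locus. Trbc2, a beta constant gene, was at 781, 672 and 783 FPKM and Trbc1 at 614, 360.3 and 578 FPKM, with replicate 2 lowest in both. The gamma constant genes Tcrg-C1 and Tcrg-C2 were at 499, 476 and 464 FPKM and 486, 498 and 431 FPKM. Tcrg-C4 was at 162, 226 and 164 FPKM and Tcrg-C3 at 5.74, 9.499 and 4.32 FPKM. Trac, the alpha constant gene, was at 2.05, 1.18 and 0.858 FPKM, which is 30, 17 and 12 fragments. Trdc has no row of its own in the table and was not analysed here.

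The variable segments, counted over whole loci after their values were seen, followed the same division. Of 23 beta V segments 21 were detected and 19 reached 10 FPKM in each library, for 5520, 7356 and 5681 fragments in all. Of 109 segments named for the alpha V genes, some of which the delta chain also uses, 8 were detected and 69 had no fragment, for 761, 475 and 655 fragments. The 59 alpha J segments had no fragment at all, but J segments did not follow the division. Of 14 beta J segments none was detected and 10 had no fragment, for 2, 0 and 4 fragments in all. Of 7 gamma V segments 4 were detected, led by Trgv2 at 427, 452 and 328 FPKM and Tcrg-V4 at 232, 282 and 213 FPKM, and of 5 delta V segments 2 were detected, led by Trdv5 at 25.7, 18.2 and 13.3 FPKM. The most abundant beta V segment was Trbv13-2 at 98.9, 93.9 and 87.6 FPKM, steady between libraries, while Trbv15 was at 38.03, 76.8 and 39.3 FPKM and Tcrg-V1 at 22.4, 54.98 and 27.1 FPKM, both highest in replicate 2. Reads across a rearranged junction may not map to a germline segment, so these values do not measure how many loci were rearranged.

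The next sequences show the DNA just upstream of annotated starts of genes described above, with both starts of Lck and Runx1 compared further on. They are the 250 bases before the annotated start (RefSeq, GRCm38.p6), read 5′ to 3′ on the gene's strand, with the E-box CAGGTG (or CACCTG, the same site on the other strand), the motif that E proteins such as HEB and E2A can bind, in capitals.
Rag1 (chr2:101649533-101649782, minus strand): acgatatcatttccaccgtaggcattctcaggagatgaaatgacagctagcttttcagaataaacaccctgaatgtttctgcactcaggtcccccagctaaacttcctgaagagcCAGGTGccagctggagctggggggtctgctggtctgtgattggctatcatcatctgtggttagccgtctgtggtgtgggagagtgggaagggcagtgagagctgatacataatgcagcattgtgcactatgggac
Dntt (chr19:41029025-41029274, plus strand): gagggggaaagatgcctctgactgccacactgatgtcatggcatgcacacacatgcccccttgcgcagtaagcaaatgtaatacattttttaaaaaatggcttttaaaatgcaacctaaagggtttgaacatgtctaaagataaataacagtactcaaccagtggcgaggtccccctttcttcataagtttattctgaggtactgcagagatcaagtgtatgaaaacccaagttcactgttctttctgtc
Ptcra (chr17:46763713-46763962, minus strand): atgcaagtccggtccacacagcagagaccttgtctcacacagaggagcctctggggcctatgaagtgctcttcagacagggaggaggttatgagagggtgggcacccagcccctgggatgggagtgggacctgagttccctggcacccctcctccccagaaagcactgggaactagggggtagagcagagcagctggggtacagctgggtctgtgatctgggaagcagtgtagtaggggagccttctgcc
Cd3g (chr9:44980432-44980681, minus strand): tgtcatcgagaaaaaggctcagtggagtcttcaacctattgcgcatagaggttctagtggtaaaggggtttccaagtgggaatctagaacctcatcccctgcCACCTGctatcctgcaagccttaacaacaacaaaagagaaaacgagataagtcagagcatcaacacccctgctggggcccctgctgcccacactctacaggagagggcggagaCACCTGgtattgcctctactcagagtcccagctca
Lck, upstream start (chr4:129573642-129573891, minus strand): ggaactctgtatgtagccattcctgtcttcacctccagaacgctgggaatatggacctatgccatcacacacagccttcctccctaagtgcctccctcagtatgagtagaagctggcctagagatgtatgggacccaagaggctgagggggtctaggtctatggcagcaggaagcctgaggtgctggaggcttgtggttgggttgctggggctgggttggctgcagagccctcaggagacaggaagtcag
Lck, downstream start (chr4:129558373-129558622, minus strand): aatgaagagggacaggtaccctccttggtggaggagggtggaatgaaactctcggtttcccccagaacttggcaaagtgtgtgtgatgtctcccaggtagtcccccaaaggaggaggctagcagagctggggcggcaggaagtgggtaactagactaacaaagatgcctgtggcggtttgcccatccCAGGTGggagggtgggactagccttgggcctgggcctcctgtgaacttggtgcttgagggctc
Runx1, upstream start (chr16:92826075-92826324, minus strand): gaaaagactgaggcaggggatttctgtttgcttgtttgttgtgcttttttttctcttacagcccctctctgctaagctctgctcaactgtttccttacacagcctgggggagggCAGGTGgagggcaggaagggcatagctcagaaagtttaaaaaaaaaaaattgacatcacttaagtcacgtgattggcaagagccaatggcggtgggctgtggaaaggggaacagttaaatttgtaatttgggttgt
Runx1, downstream start (chr16:92697330-92697579, minus strand): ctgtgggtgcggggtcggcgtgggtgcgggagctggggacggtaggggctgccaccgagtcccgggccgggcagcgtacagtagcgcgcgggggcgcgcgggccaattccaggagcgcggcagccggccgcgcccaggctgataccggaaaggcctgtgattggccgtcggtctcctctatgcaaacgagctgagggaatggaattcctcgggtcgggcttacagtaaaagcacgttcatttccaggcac

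In windows of 300 bases, which add the first 50 of the transcript to those 250, CAGGTG was found on either strand once in that of Rag1, 135 bases before the start, 2 times in that of Cd3g, 148 and 35 bases before it, and in neither that of Dntt nor that of Ptcra. Over all 32851 promoter windows of that length 20.2% hold it, and among 6099 detected coding genes with a single window 16.3% do. Of 36 detected genes of the identity, factor and Notch lists with a single window 8 (22.2%) hold it. These are matches of letters, not measured binding.

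The promoters of several highly expressed stage genes were poor in CpG. The 300-base windows held 1 CpG for Ptcra, 2 for Dntt, 3 each for Rag1 and Il2ra and 4 for Cd3g, against 23 for Notch1. The median over detected coding genes was 22, and over coding genes without any fragment it was 3. Over the 36 genes of the 3 T cell lists the median was 20, but the lower quartile was 3, where that of all detected coding genes was 15. A TATAAA motif 40 to 15 bases before the start was found in 0.836% of detected and 6.43% of silent coding genes, and in none of the 36.

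Both Lck and Runx1 have an upstream and a downstream start, and the transcripts divided between them differently. For Lck, transcripts from the downstream start (chromosome 4, position 129558372 on mm10, minus strand) held 71.5%, 74.8% and 77.3% of the gene's FPKM. Those from the upstream start (position 129573641) held 15.98%, 12.2% and 10.6%, the rest lying on transcripts with other annotated starts. The downstream start was the larger in each library by more than the spread between them. Its window of 300 bases holds CAGGTG 63 bases before the start, and that of the upstream start holds it 23 bases after the start.

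For Runx1 the upstream start (chromosome 16, position 92826074, minus strand) held 62.4%, 78.9% and 65.97% of FPKM and the downstream one (position 92697329) 9.58%, 13.9% and 12.01%. Here the upstream start was the larger in every library. The 2 windows differ in composition, with 2 CpG at the upstream and 35 at the downstream start, and CAGGTG occurs only at the former, 136 bases before it. Tcf7 used mainly its more downstream start (chromosome 11, position 52282595), at 86.4%, 84.4% and 83.6% of FPKM. These shares are estimates by the authors' software from fragments that transcripts share, and no start site was measured directly.

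Over the detected genes with several listed transcripts (7677), 1 transcript held at least 90% of the FPKM in 1534 (19.98%), and the median share of the main transcript was 68.2%. Without replicate 1 the 1534 became 1593. The main transcript was the same in all 3 libraries for 6339 genes (82.6%). Of the 66 detected genes of the 4 T cell lists 22 have a single listed transcript, and 27 had a second transcript at 10% or more in each library. Notch1 was one of the latter. Its main protein-coding transcript held 72.2%, 65.8% and 71.7% of FPKM, and a transcript annotated as retaining an intron 12.96%, 11.2% and 11.8%.

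Of 166 genes on lists of other lineages with values, 118 (71.1%) stayed under 1 FPKM in each library, beside 69.5% of all symbols and 50.1% of coding symbols. In 47 (28.3%) no library had a fragment, beside 52.4% of all symbols and 31.5% of coding symbols. The first share was thus near that of all symbols and above that of coding symbols, and the second was below both, so the lists are described gene by gene. Leaving out replicate 1 gave 121. A gene with no fragment is not shown to be absent, only not detectable at this depth.

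Of the B cell list, Pax5, the factor that commits cells to the B lineage, had no fragment, and 10 of 14 genes were under 1 FPKM. Exceptions were Ighm, the mu heavy chain, at 68.4, 59.3 and 66.6 FPKM, Cd79b at 33.997, 33.9 and 29.1 FPKM and Vpreb1, a surrogate light chain, at 2.95, 2.51 and 3.76 FPKM. The summed level of the list was 106, 98.0 and 101 FPKM and rested on the first pair. Of the myeloid list 13 of 14 were under 1 FPKM, with Elane and S100a8 at no fragment, and only lysozyme (Lyz2) stood out at 13.2, 12.3 and 15.2 FPKM. Of 11 dendritic cell genes with values Clec9a, Batf3 and Cd209a had no fragment, while the class II gene H2-Ab1 was at 6.33, 6.505 and 6.91 FPKM.

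Natural killer genes were low apart from the granzyme Gzma and Id2. Ncr1, Klrd1, Klrk1, Eomes and Gzmb had no fragment, and 13 of 15 genes on the list were under 1 FPKM. Gzma was at 229.7, 326 and 236 FPKM, with values that overlap those of Ptprc, and its range lay wholly above that of Rag2 or Il2ra. Id2, also on this list, was described above. Of the mast cell list 7 of 10 genes, Mcpt4, Tpsb2, Tpsab1, Fcer1a, Ms4a2, Cma1 and Mcpt8, had no fragment, and Cpa3, carboxypeptidase A3, was the exception at 25.6, 18.3 and 25.6 FPKM.

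Erythroid and platelet genes were low throughout. Gata1 was at 3.13, 3.29 and 3.09 FPKM, the beta globin gene Hbb-bs at 1.27, 0.660 and 3.67 FPKM and the alpha globin gene Hba-a1 at 0.795, 0 and 2.12 FPKM, with both globins highest in replicate 3. Slc4a1 and, of the platelet genes, Pf4, Ppbp, Gp9 and Gp1bb had no fragment. Of 12 thymic epithelial genes Foxn1, Krt5, Krt14 and Pax1 had no fragment. Another 5, Krt8, Psmb11, Prss16, Aire and Dll4, had some and stayed under 1 FPKM, with 153, 58 and 78 fragments of Aire. The 3 detected were Epcam at 40.3, 41.1 and 41.2 FPKM, Cldn4 at 14.9, 14.9 and 12.8 FPKM and the chemokine gene Ccl25 at 3.09, 4.86 and 3.86 FPKM. Of 7 fibroblast genes Col1a2, Col3a1, Pdgfra, Dcn and Lum had no fragment, Col1a1 had 10, 11 and 10 fragments and Pdgfrb was at 5.89, 9.97 and 8.97 FPKM. Of 6 endothelial genes Tek and Emcn had no fragment, Cdh5, Kdr and Tie1 stayed under 1 FPKM and Pecam1 was at 33.6, 27.6 and 27.7 FPKM. Whether cells of these types were present was not tested. In the list of other organs Alb, Apoa1, Ttr, Ins2, Neurod1, Umod, Sftpc, Olig2 and Sox2 had no fragment.

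Genes of the stages just before and after were at varied levels. Of 18 early progenitor genes 8 were under 1 FPKM and 6 were detected. Nfe2 was at 19.3, 15.5 and 23.6 FPKM, Erg at 14.7, 11.8 and 15.2 FPKM, Kit, the stem cell factor receptor, at 11.98, 9.13 and 11.5 FPKM and Mycn at 11.1, 8.62 and 9.36 FPKM, whereas Gata2 had no fragment. Of 20 genes of later thymocytes and mature T cells 10 were detected and 9 were under 1 FPKM. Themis, which acts in receptor signalling, was at 131, 128 and 115 FPKM and the inhibitory receptor Ctla4 at 28.5, 43.02 and 30.3 FPKM. Cd8b1 was at 4.91, 7.78 and 6.41 FPKM and Cd40lg had no fragment. Themis thus stood among the levels of the identity genes.

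Of 10 genes of the gamma delta lineage 5 were detected and 5 were under 1 FPKM. Sox13 was at 10.6, 14.1 and 19.01 FPKM, with its lowest value in replicate 1 and its highest in replicate 3. Cd163l1 was at 11.5, 8.398 and 4.93 FPKM, Blk at 9.98, 6.22 and 5.87 FPKM and Etv5 at 3.14, 6.22 and 5.55 FPKM, while Il17a had no fragment. Cd163l1 and Blk were highest in replicate 1, where Sox13 and Etv5 were lowest.

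Chaperone, ribosomal protein and noncoding genes led the order by fragments. The 10 genes with most fragments held 4.10%, 3.64% and 3.95% of all fragments (3.90% ± 0.234, SD, n = 3), the first 100 held 16.8% and the first 1000 49.7%. Of the genes used, Hspa8, a constitutive chaperone, had the most, 246935, 222005 and 232966 fragments. Next came the noncoding RNAs Yam1 and Malat1, the elongation factor Eef2, Actb, Rpsa and Dntt. The shares and the orders by fragments and by FPKM leave out the 197 symbols with failed estimates, Eef1a1 among them. Their failed transcripts are listed at 0, so their true places are not known. Cytosolic ribosomal protein genes, 85 of them detected, held 9.41% ± 0.163 of fragments. Clustered histone genes held 1.34%, 1.67% and 1.66%, lowest in replicate 1. Mitochondrial genes held 0.412%, and T cell receptor segments 0.131%.

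By FPKM the protein-coding order was led by short mRNAs, and 17 of the first 25 encode ribosomal proteins. Rplp1 was at 4604, 4413 and 4536 FPKM, Rps24 at 3403, 3562 and 3429 FPKM and Rpl13a at 3268, 3499.7 and 3431 FPKM. Another 3 were histone H4 genes, with Hist1h4d at 3035, 2877 and 3586 FPKM, Hist1h4c at 2834, 3052 and 3559.8 FPKM and Hist1h4f at 2561, 2688 and 3039.7 FPKM, each highest in replicate 3. The other 5 were Ppia (cyclophilin A, 2926 ± 352 FPKM), Hspa8 (2510.5 ± 149 FPKM), Crip1 (2159 ± 6.97 FPKM) and the pair Uck2 and Gm17604. Crip1, a small LIM protein gene, differed by under 1% between libraries.

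In the last pair, transcripts under 200 bases held 97.2% of the FPKM of Uck2 and 100% of that of Gm17604. Uck2 was at 20438, 3720.2 and 4859 FPKM from 17645, 18472 and 17980 fragments, so the fragments were nearly alike where FPKM was far higher in replicate 1, and Gm17604 had 2, 2 and 0 fragments. In the 15 highest genes of other biotypes 14 had at most 40 fragments in each library and 11 had none in at least 1 library, among them 5 receptor J segments and 4 miRNA hairpins. Trbj1-5 shows the extreme: 1, 0 and 1 fragments gave 695006, 0 and 131490.0 FPKM. The germline segment is 50 bases long (GENCODE M21, GRCm38).
Trbj1-5 (chr6:41535084-41535133, plus strand): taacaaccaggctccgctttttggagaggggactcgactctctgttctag
Transcripts under 200 bases held 0.0112%, 0.0112% and 0.0107% of fragments but 80.2%, 42.3% and 54.6% of summed FPKM. Their levels were therefore not read as abundance. The remaining gene of those 15 was Rmrp, the RNA of the RNase MRP enzyme, at 14869, 12660.0 and 12623 FPKM from 75797, 66929 and 61033 fragments.

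Among other structured and long noncoding RNAs Malat1 was at 1098, 899 and 883 FPKM, Gas5 at 613, 724 and 691 FPKM and the telomerase RNA Terc at 211, 192 and 225 FPKM. H19, an imprinted transcript, was at 92.98, 396 and 260.3 FPKM, a spread (CV 60.7%) far above that of Gas5 (8.45%) or Terc (7.86%), with replicate 1 lowest. It had 11942, 51220 and 31894 fragments, so counting error is not the limit there.

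Between libraries the median detected gene had a CV of 9.25%, where counting error alone gives 2.33%. The median CV was 14.4% between 1 and 10 FPKM, 7.74% between 10 and 100, 6.90% between 100 and 1000 and 4.70% above 1000. Without replicate 1 the median over the remaining libraries was 6.84%, without replicate 2 it was 7.76% and without replicate 3 it was 8.26%. It was thus lower whichever library was left out. Of the T cell lists the median CV was 6.17% for identity genes, 6.68% for factors, 6.57% for Notch genes and 14.1% for the 6 detected receptor constant genes. The steadiest genes of at least 10 FPKM and 100 fragments on average were Golt1b (23.01, 23.1 and 23.04 FPKM), Nemf, Nxf1, Fxr1, Cnppd1, Clns1a, Kansl1, Eral1, Rpl38 and Crip1. With 3 libraries a small CV for single genes among 7045 can arise by sampling, and the order was not tested.

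**Figure D3:**
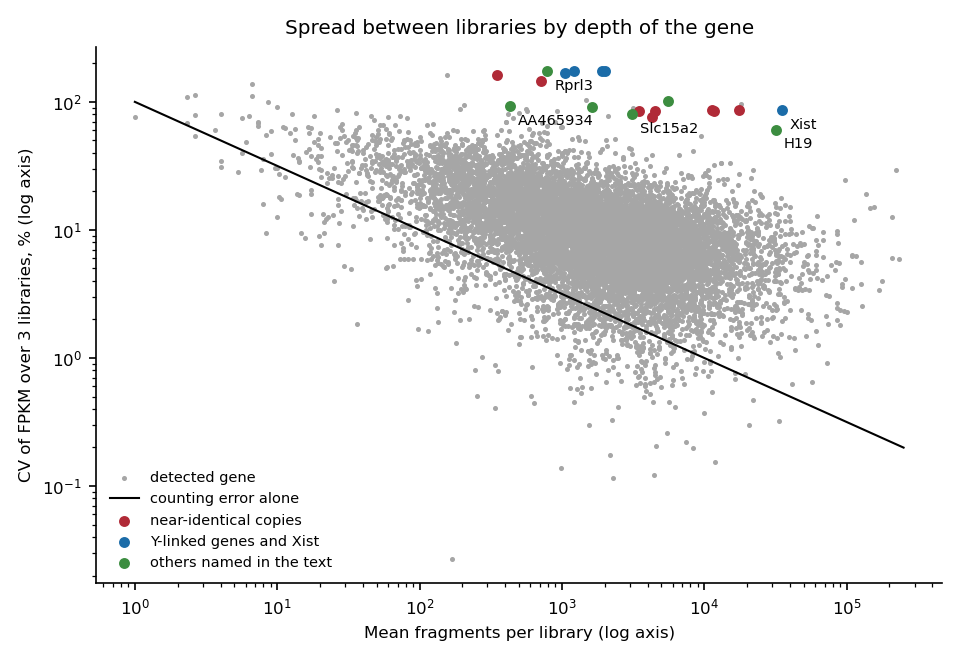
CV of FPKM over 3 libraries in percent (vertical, log axis) against mean fragments (horizontal, log axis) for detected genes, with the black line showing counting error alone. Near-identical copies (red), Y-linked genes and Xist (blue) and 6 other genes (green) lie above most genes of like depth, with Xist at 86.5% and H19 at 60.7%.

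Among the 7045 genes 31 had a CV over 50%, and 16 without replicate 1, where the minimums of level and fragments were applied to the remaining libraries. Of the 31, 8 were pseudogenes, from 37 at that depth, 4 were clustered histone genes, from 59, and 3 were receptor segments, from 30. Another 12 were other protein-coding genes, from the class that makes up most of the 7045. At that depth 6797 detected genes are protein-coding, ribosomal protein and histone genes included. Besides Eif2s3y, Ddx3y and Xist, the most variable 15 held Rprl3 (1, 2340 and 1 fragments), Arhgap30, a GTPase-activating protein gene (44.97, 9.71 and 7.47 FPKM), Trim16 (5.04, 4.76 and 20.999 FPKM) and the noncoding AA465934 (15.9, 17.98 and 74.95 FPKM). Each of these had a single high library, replicate 2 for Rprl3, replicate 1 for Arhgap30 and replicate 3 for the other pair. Hist1h2bl was at 29.3, 223 and 52.6 FPKM and Hist1h2al at 1.22, 361 and 481 FPKM, and both match other histone genes at over 98% of bases. Slc15a2, a peptide transporter gene outside the first 15 and named after its values were seen, was at 60.05, 55.4 and 3.21 FPKM, low in replicate 3 alone. Cisd3 and Uck2 also stood on the list, and their fragments were nearly alike between libraries (150, 163 and 158 for Cisd3).

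Several of the most variable features were processed pseudogenes nearly identical to a ribosomal protein mRNA, which makes the split of their reads uncertain. Rps3a3 had 28, 17261 and 16456 fragments and Rps3a2, a further copy, 198, 17732 and 16989. Their parent Rps3a1 moved the other way, 123511, 87356 and 81446, and Rps3a2 matches it at 99.5% of bases. Summed and scaled to library size as CPM, the family had 2706, 2604 and 2527 CPM, a CV of 3.44% where the parent alone had 23.9%.

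The same held for the Rplp0 family. Gm8730 had 72, 27310 and 25090 fragments and Gm9625 67, 6781 and 6749, and the sum with Rplp0 was 3761, 3625 and 3549 CPM (CV 2.96%, against 16.1% for Rplp0 alone). Copies held 0.0808% of that family's fragments in replicate 1 but 20.01% and 19.7% in the others. For Tpm3 and its copy Tpm3-rs7 these shares were 0.225%, 22.1% and 22.1%, and for Rpl3 with Rpl3-ps1 0.444%, 5.08% and 5.36%. In the Rpl15 family, with Rpl15-ps2 and Gm10020, replicate 2 differed instead, at 7.09% against 0.271% and 0.351%. On their own rows Rplp0 and Rps3a1 were highest in replicate 1 by a margin that their family sums did not show. Which step of mapping or estimation set the split was not tested.

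**Figure D4:**
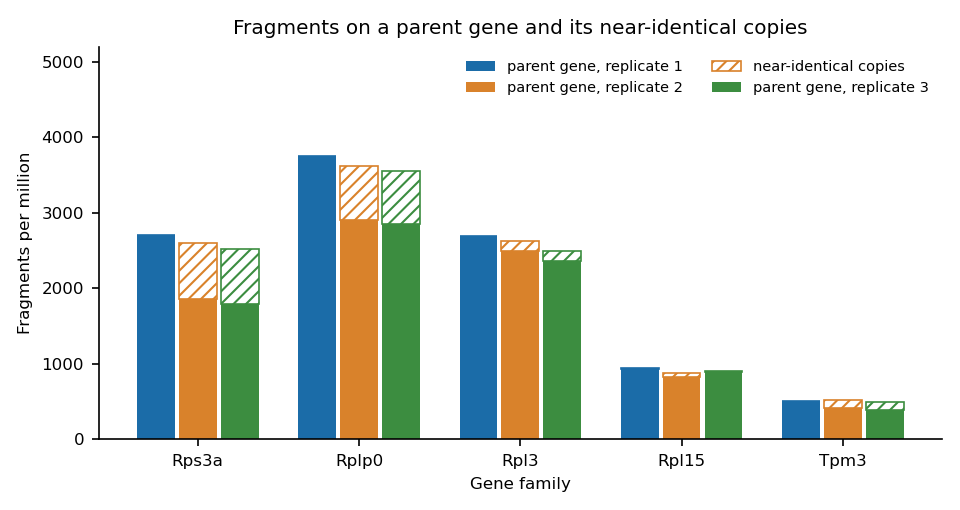
Fragments scaled to library size (CPM, vertical) on the parent gene (filled) and on its near-identical copies (hatched) for 5 families, 1 bar per replicate. Bars of a family end at nearly the same height, while the hatched part is close to 0 in replicate 1 for Rps3a, Rplp0, Rpl3 and Tpm3 and in replicates 1 and 3 for Rpl15.

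Cell cycle genes were high in all libraries, with a median place at percentile 93.5 for the S phase list and 81.3 for the list of G2 and mitosis, and lowest in replicate 1. All 16 S phase genes were detected, with Pcna at 397, 468 and 457 FPKM, Mcm6 at 261, 294 and 301 FPKM and Tyms at 109.7, 132 and 138 FPKM, and all 16 were lowest in replicate 1. All 17 genes of G2 and mitosis were detected, with Top2a at 242, 303 and 306 FPKM, Cdk1 at 88.96, 122 and 129.5 FPKM and Birc5 at 52.9, 68.5 and 70.6 FPKM, and 16 of 17 were lowest in replicate 1. On the log2(FPKM + 0.1) scale, as the mean deviation from each gene's mean, the mitotic list was at -0.28, 0.15 and 0.14 and the S phase list at -0.16, 0.06 and 0.10, where the mean of all detected genes was at -0.03, 0.01 and 0.02. Without replicate 1 the range of the mitotic list between libraries was 0.01 and that of the S phase list 0.05. Genes of a list are not independent, and no test was made of 3 libraries. The share of all detected genes that were lowest in each library was not counted.

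Interferon response genes differed in another library. All 10 detected members were lowest in replicate 3, and the list was at 0.52, 0.18 and -0.70 on the same scale. Isg15, a ubiquitin-like protein gene, was at 19.5, 20.3 and 8.44 FPKM, Irf7 at 13.9, 14.2 and 8.35 FPKM and Xaf1 at 12.8, 14.5 and 9.14 FPKM, while the most abundant member, Bst2, was at 198, 151 and 148 FPKM, nearly alike in replicates 2 and 3. Without replicate 3 the range fell from 1.22 to 0.34. Of immediate early and heat shock genes Hsp90aa1 was at 781, 683 and 788 FPKM, Jun at 31.5, 29.97 and 28.04 FPKM and Junb at 35.3, 30.4 and 31.2 FPKM, and that list ranged over 0.26. The p53 target list, with Trp53inp1 at 151, 129 and 116 FPKM and Bax at 45.4, 39.9 and 48.1 FPKM, ranged over 0.16.

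**Figure D5:**
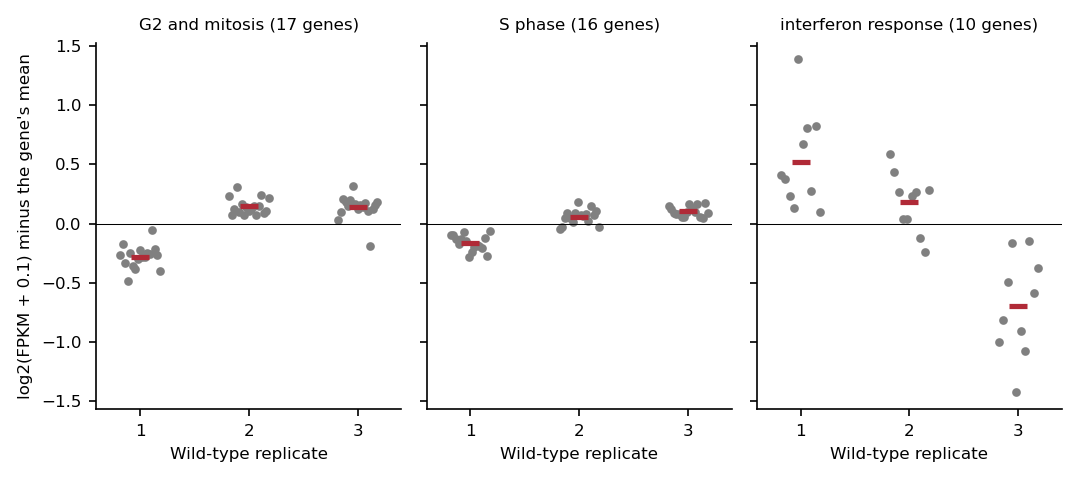
Deviation of log2(FPKM + 0.1) from the gene's mean (vertical) in each wild-type replicate (horizontal), 1 grey point per detected gene and replicate, with the red bar at the list mean. Cell cycle genes sit below 0 in replicate 1, and interferon response genes sit below 0 in replicate 3.

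The level of X-linked genes was also lowest in replicate 1, by a small margin. The median level of 312 detected X-linked coding genes over that of 9691 autosomal ones was 0.807, 0.862 and 0.845. The error of these ratios was not estimated. Of 5 genes known to escape X inactivation, listed after the values were seen, Eif2s3x was at 92.3, 167 and 160.0 FPKM, Kdm6a at 15.2, 28.6 and 25.1 FPKM and Kdm5c at 35.8, 44.9 and 49.1 FPKM, each lowest in replicate 1, while Ddx3x was at 193, 196 and 175 FPKM and lowest in replicate 3. Replicate 1 thus alone held Y-linked RNA and was nearly without Xist. H19, cell cycle genes and reads on most of the near-identical copies differed in it too. Since it is a single library, whether those differences go with the sex-linked RNA or with something else cannot be told apart.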

How the data were processed

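Per the labels' protocols, an RNeasy Micro kit gave total RNA, from which Ribo-Zero Gold removed ribosomal RNA. TopHat2, Cuffdiff and the mm10 build are named in the submitters' processing notes. Versions, annotation, strand and read length were not stated there or in the labels. Per the file headers, the authors deposited an estimated count of fragments and an FPKM value for each of 100144 transcripts.

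Both were summed per symbol. Symbols with a transcript of failed status (466 transcripts at 9 loci, 197 symbols) were left out. The 3 transgenic libraries were not used, and per-sample columns of no labelled sample numbered 0. No test was made, so values are descriptions, and SDs measure only the spread between these samples, which may be technical. With 45469459 to 46985605 fragments, counting error is small for all but rare transcripts. Biotypes and positions are GENCODE M21 (97.3% of gene IDs matched). Promoters are RefSeq, matched by symbol (49 of 71 genes of the T cell lists). Copies were found with BLAST 2.17.0. Software was Python 3.11.15, pandas 2.3.3 and edgeR 4.0.16 (TMM factors only, as an alternative on rounded counts).

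Members, gene lists and alternatives were chosen with earlier results of these data known. Named genes were the 25 coding and 15 other highest by FPKM, all members of the 4 T cell lists, from other-lineage lists up to 4 members at 1 FPKM or more and those without fragments, the 15 most and 10 least variable at 10 FPKM and 100 fragments, and up to 6 members of other lists. Yam1, Eef2, Rpsa, Slc15a2, the parent and copy genes, receptor V segments and the X-linked genes were named after their values were seen. Some list members are counted but not reported here by name. Without strand, overlapping and antisense genes cannot be told apart.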

Additional observations from a re-analysis of the deposited data

How the results depend on the processing

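Of 92 alternative values 76 stayed within the spread between libraries or, for counts and the median CV, within 1.5 times. The number of detected genes (8483 at a threshold of 5 FPKM to 12003 at 0.5 FPKM) and of other-lineage genes below the threshold (103 to 140) were among them under every alternative run. The 76 include the runs that kept genes with failed estimates, which could not change because those transcripts are listed at 0. They also include, for each gene list, the run without the library of middle level, which cannot change the range. The 10 largest genes held 54.43% of summed FPKM instead of 3.895% of fragments, because transcripts under 200 bases enter that sum. Rescaling each library to the same FPKM sum, which divides by that sum, gave a median CV of 47.98% and ranges between libraries of 1.931 (G2 and mitosis), 1.731 (S phase), 1.431 (immediate early and heat shock) and 1.294 (p53 targets) on the log2 scale, and it left 9778 genes detected. Genes with 1 main transcript numbered 2626 at a share of 80%, 2613 with fragments as the level and 1017 among genes of at least 10 FPKM, against 1534. With TMM-scaled CPM the median CV was 7.627%.

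Leaving out each library in turn gave a median percentile of the identity list from 94.56 (without replicate 3) to 95.47. It gave 16 (without replicate 1) to 38 genes with a CV over 50%, and that count, like those at 10, 100 and 1000 FPKM, under 1 FPKM and with no fragment, was recomputed by a choice made after seeing the data. The range between the remaining libraries ran from 0.00929 (without replicate 1) to 0.4264 for G2 and mitosis, from 0.04628 (without replicate 1) to 0.2666 for S phase, from 0.055 (without replicate 3) to 0.2626 for immediate early and heat shock genes, from 0.3415 (without replicate 3) to 1.222 for interferon response genes and from 0.002254 (without replicate 2) to 0.1632 for p53 targets. No paired analysis was possible because the result comes from no test: a single group was described. Depth limits the genes with few fragments, and requiring 10 fragments in each library left 10977 detected genes.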
